A study of Mus musculus with 4 samples.

Results

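The genes described here encode the machinery that copies DNA in S phase. They were taken by symbol from a list of 39 genes, and all 39 had a row among the 14382 genes of the deposited expression table. By role, 9 belong to origin licensing, 12 to the replicative helicase, 15 to the polymerases and the fork, and 3 to the supply of deoxynucleotides.

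Each replication origin is prepared in G1, when the origin recognition complex (ORC), with CDC6 and CDT1, loads the ring-shaped MCM2-7 complex onto DNA. In S phase CDC45 and the GINS complex join MCM2-7 to form the active helicase, and DNA polymerases, the sliding clamp PCNA and the single-strand binding protein RPA work behind it. The genes are textbook targets of the E2F transcription factors. Mouse embryonic stem cells (ESCs), which cycle fast with a short G1, are known for high levels of them.

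The libraries came from polyA RNA of mouse ESCs with the genotype Arid1af/f:CreERT2. Both alleles of Arid1a, a subunit gene of the BAF chromatin remodelling complex, are floxed in these cells, and CreERT2 is a Cre recombinase that enters the nucleus when 4-hydroxytamoxifen (4-OHT) binds it. The control group received ethanol and the other group 1 µM 4-OHT, both for 24 hours before a passage, and RNA was taken 72 hours after treatment. Each group had 2 libraries, called A and B here, and the control cells carried the same floxed alleles and CreERT2. Cells with CreERT2 and unfloxed Arid1a were not analysed here, so loss of Arid1a, Cre activity and 4-OHT itself cannot be told apart. All cells grew with serum, serum replacement and LIF on gamma-irradiated embryonic fibroblasts, which do not divide. No label ties the replicates to separate cultures, and the p-values therefore cover only the spread between these libraries, which may be technical. They name an unstranded and a stranded TruSeq kit without saying which library had which, so a kit difference and the treatment cannot be told apart.

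Levels are given in CPM, the reads of a gene scaled to a library of fixed size. The deposited values were group means, from which the reads of each library were recovered, in totals of 6050742 to 6849890 reads. Arid1a stood at 517 and 502 CPM in the ethanol libraries and at 241 and 213 CPM in the 4-OHT libraries. The 4-OHT libraries were both lower, and Arid1a fell by 1.16 on the log2 scale (SE 0.066, limma adjusted p = 7.3e-06). The labels do not give the floxed exons, so reads of the rest of the transcript count here too. All 8 ESC markers looked for were detected, and 2 rose (Nanog and Tdgf1), 2 fell (Sox2 and Esrrb) and 4 did not pass the test. Beside these and the marker counts below, 5.24% of all tested genes rose and 4.22% fell in limma (adjusted p under 0.05). Pou5f1 stood at 1498 and 1386 CPM in ethanol and 1363 and 1514 CPM with 4-OHT (limma adjusted p = 0.981). Nanog rose, from 309 and 318 CPM to 403 and 402 CPM (limma adjusted p = 0.0022), and Sox2 fell, from 349 and 327 CPM to 292 and 289 CPM (limma adjusted p = 0.0405). Of 10 fibroblast markers, 7 had a row and 2 of them (Col1a2 and Thy1) rose. Their summed level was 166 and 165 CPM in ethanol against 210 and 195 CPM with 4-OHT, and the part of feeder RNA in any result here was not tested. Summed endoderm markers (5 of 7 with a row, none past the test) stood at 29.8 to 30.3 CPM in ethanol and 31.0 to 31.3 CPM with 4-OHT. Of 6 neuroectoderm markers 5 rose and 1 fell, with sums of 314 and 324 CPM against 339 and 318 CPM. These sums hide opposite changes. Nes fell from 212 and 226 CPM to 152 and 143 CPM, and Sox1 rose from 91.3 and 87.5 CPM to 160 and 149 CPM. At low levels, Zic1, Pax3 and Neurog3 rose by 1.75, 1.71 and 1.74 on the log2 scale. The lists were chosen with earlier results of these data known, so the 5 of 6 may partly restate that choice. Of 5 trophoblast markers with a row 1 rose and 2 fell, with sums of 193 and 182 CPM against 170 and 170 CPM. In bulk RNA, fewer cells in S phase and less RNA per cell cannot be told apart.

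The replication genes stood at nearly the same level in both groups. None of the 39 passed the test (limma on log2(CPM + 1), adjusted p under 0.05 over 14376 genes), while 9.46% of all tested genes did, 5.24% higher and 4.22% lower. Their lowest adjusted p was 0.0559 in limma, for Rrm2. At an unadjusted p under 0.05 there were 4 of the 39 (Pola2, Pole, Rpa2 and Rrm2), beside 23.9% of all tested genes, and edgeR gave the same 4 and Gins3, beside 27.2%. In edgeR's quasi-likelihood test on the recovered reads, Rpa2 was called higher and Rrm2 lower, where 15.8% of 12961 genes were called, 8.12% higher and 7.63% lower. DESeq2 called neither, where 5.07% of genes were called. Summed over the 39 genes, the level was 8869 and 8873 CPM in the ethanol libraries and 8707 and 8596 CPM in the 4-OHT libraries.

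**Figure D1:**
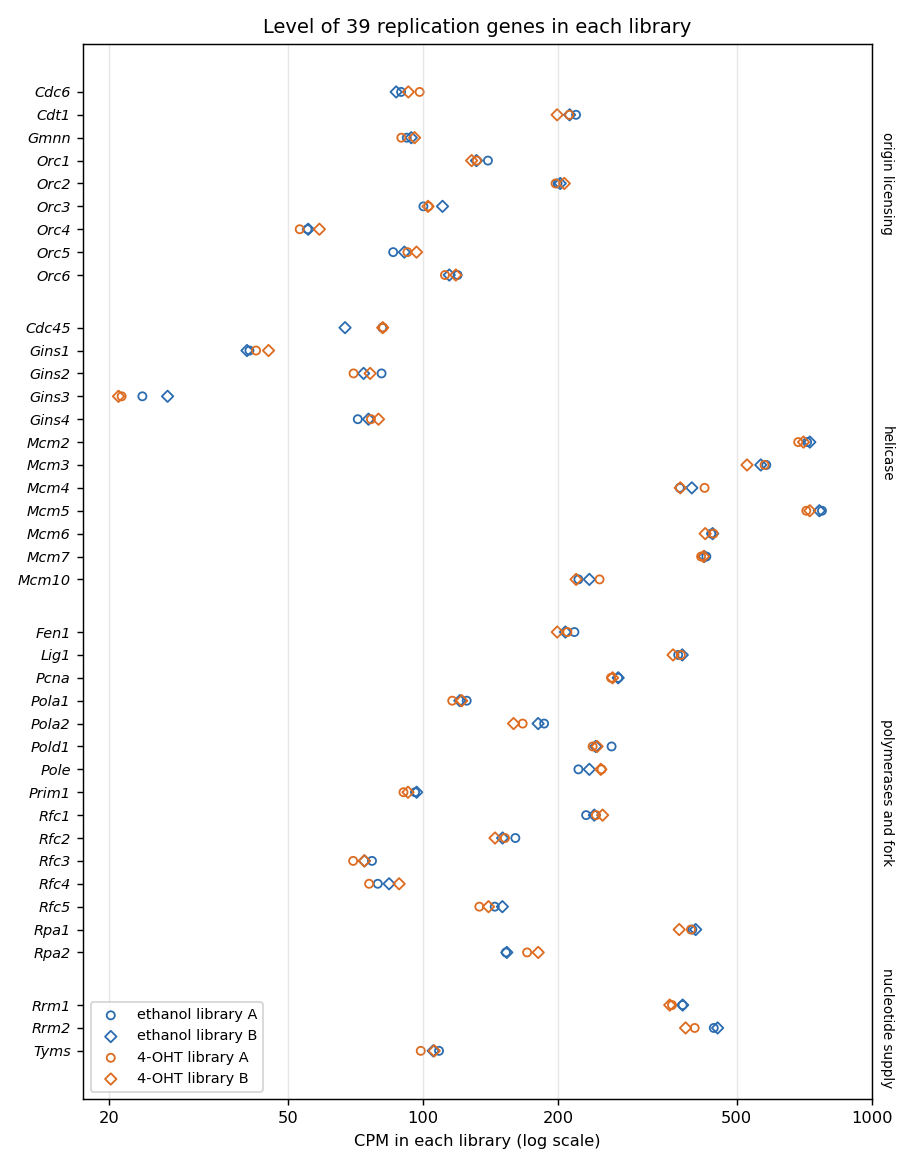
Level of each of the 39 genes in each library, in CPM on a log axis, grouped by role; circles and diamonds are libraries A and B, blue for ethanol and orange for 4-OHT. The points of a gene lie close together against the spread between genes, from 20.98 CPM for Gins3 to 775 CPM for Mcm5.

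The differences were small in both directions. The log2 fold changes ran from -0.25 (Gins3) to 0.19 (Rpa2) with a median of -0.05, beside a median of -0.0016 over all tested genes. Of the 39, 26 lay below 0, which is 66.7% beside 50.4% of all tested genes and 54.6% of the 7423 genes with a mean level in the range of these 39 (23.3 to 746 CPM). Scaling the libraries by TMM or by DESeq2 size factors changed no sign. The 4-OHT libraries were both above the ethanol libraries for 8 genes and both below for 13, and the groups overlapped for 18, where 26.4% and 25.7% of all tested genes lay apart in those directions. The median absolute log2 fold change was 0.066, against 0.097 for those 7423 genes. Gins3 alone passed 0.2 in absolute size, which is 2.56% of the 39 beside 21.6% of the genes in that range. The 95% interval of the log2 fold change lay within 0.5 of 0 for 38 of the 39, within 0.3 of 0 for 34, and held 0 for 35. A missed threshold does not show equal levels, and these intervals give the range of changes that the 4 libraries allow.

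**Figure D2:**
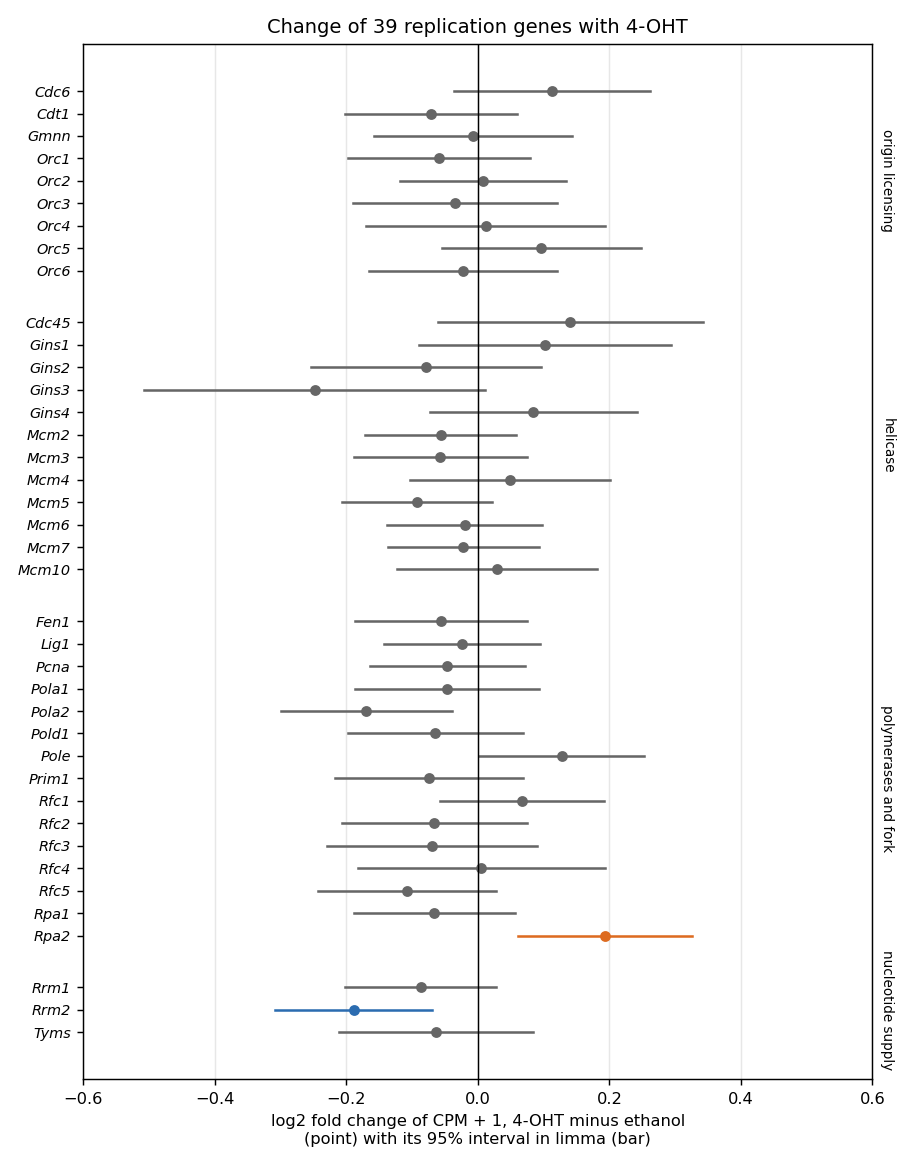
Difference in log2(CPM + 1) between 4-OHT and ethanol for each of the 39 genes (point) with its 95% interval from limma (bar), grouped by role; orange and blue mark Rpa2 and Rrm2, the genes that edgeR called higher and lower. The points lie between -0.25 and 0.19 and 35 of the 39 bars hold 0.

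**Figure D3:**
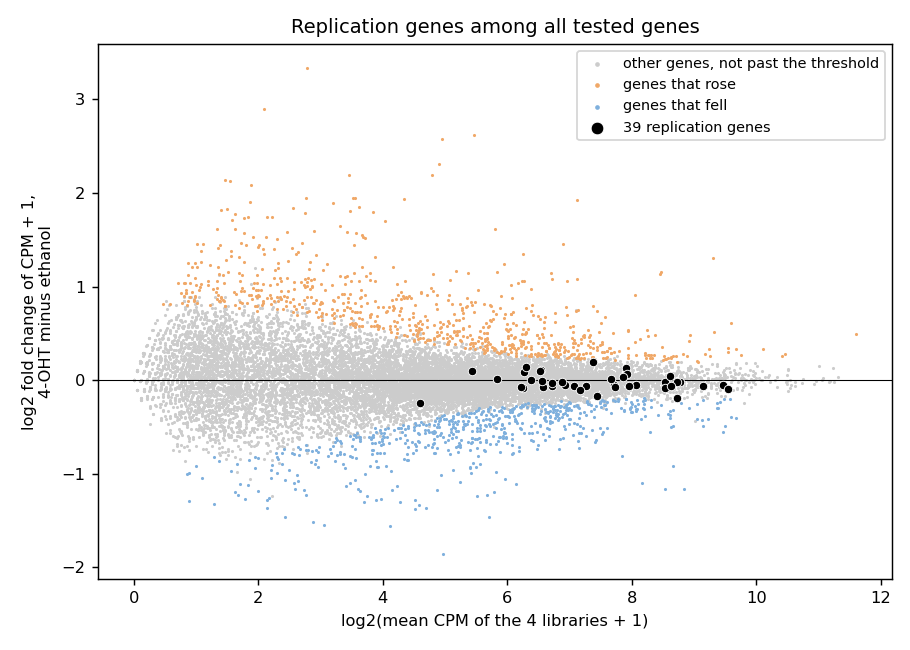
Log2 fold change of CPM + 1 against the log2 of mean CPM + 1 over the 4 libraries for 14376 genes; orange and blue points passed the limma test as higher and lower with 4-OHT, grey points did not, and black points are the 39 replication genes. The black points lie in the grey band around 0.

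Of the 9 licensing genes none passed the test in limma, edgeR or DESeq2, and none had an unadjusted p under 0.05 in limma or edgeR. Their median log2 fold change was -0.01, and their summed level was 1101 and 1099 CPM in ethanol and 1090 and 1100 CPM with 4-OHT. Cdt1, which brings MCM2-7 to origins, stood at 219 and 212 CPM in ethanol and at 212 and 199 CPM with 4-OHT. The 4-OHT values lay below the ethanol values, the nearest pair by less than 1 CPM, with a log2 fold change of -0.07 (SE 0.059, limma adjusted p = 0.517). Orc2, an ORC subunit, stood at 200 and 202 CPM in ethanol and 198 and 207 CPM with 4-OHT. The 4-OHT libraries lay on either side of the ethanol libraries (log2 fold change 0.01, SE 0.057, limma adjusted p = 0.956). Exons of Nif3l1 on the opposite strand cover 29.8% of the Orc2 exons, and as the counting of strand is not given in the sources used here, reads of the pair cannot be told apart. The 6 ORC subunits had log2 fold changes from -0.06 to 0.10, and 5 of the 6 overlapped between groups. Geminin (Gmnn), the inhibitor of CDT1, had a log2 fold change of -0.01. The level of Cdt1 relative to Gmnn was 2.38 and 2.25 in ethanol and 2.37 and 2.08 with 4-OHT, which overlapped. Cdc6, the loader that works with ORC, had a log2 fold change of 0.11 (limma adjusted p = 0.351).

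Of the 12 helicase genes none passed the test in limma, edgeR or DESeq2. Mcm5, a subunit of the MCM2-7 ring, stood at 775 and 765 CPM in ethanol and 715 and 728 CPM with 4-OHT. Its libraries did not overlap between groups, with a log2 fold change of -0.09 (SE 0.051, 95% interval -0.21 to 0.02, limma adjusted p = 0.308). Mcm2, the neighbour of MCM5 in the ring, stood at 718 and 728 CPM in ethanol and 686 and 705 CPM with 4-OHT. It was lower in both 4-OHT libraries as well, with a log2 fold change of -0.06 (SE 0.052, limma adjusted p = 0.566). Over the 6 ring subunits the log2 fold changes ran from -0.09 to 0.05 with a median of -0.04, 5 of the 6 were below 0, and 3 overlapped between groups. Their summed level was 3317 and 3322 CPM in ethanol and 3264 and 3183 CPM with 4-OHT. Mcm10, which helps to activate the helicase, had a log2 fold change of 0.03 and overlapping groups.

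The GINS subunit genes and Cdc45 had lower levels and wider intervals. Gins3, named here after its values were seen, stood at 23.7 and 27.0 CPM in ethanol and 21.3 and 20.98 CPM with 4-OHT. The ethanol libraries were the higher ones, with a log2 fold change of -0.25 (SE 0.12, 95% interval -0.51 to 0.01, limma adjusted p = 0.230). The other three GINS subunits had log2 fold changes from -0.08 to 0.10, and the summed level of the 4 was 217 and 217 CPM in ethanol and 211 and 222 CPM with 4-OHT. Exons on the opposite strand cover 67.3% of the Gins2 exons, with the same limit as for Orc2. Cdc45 stood at 81.2 and 67.1 CPM in ethanol and 81.6 and 81.4 CPM with 4-OHT. The ethanol libraries of Cdc45 differed more from each other than ethanol library A did from either 4-OHT library.

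A match to the E2F site, a promoter feature that the list of symbols did not use, was more frequent among these genes than among the genes of the table, though most of them lacked one in the window searched. RefSeq (GRCm38.p6) gave a promoter window, 250 bases before to 50 after the transcription start, for 32 of the 39. The words TTTCCCGC, TTTCGCGC, TTTGCCGC and TTTGGCGC were searched on both strands, and matches can overlap each other. A match was present in 13 of the 32 genes (40.6%), beside 4.62% of the 11357 genes of the table with a window and 2.61% of all 27025 genes with one. The matches fell in 5 of 8 helicase genes, 4 of 8 licensing genes, 4 of 13 polymerase and fork genes, and 0 of 3 nucleotide supply genes. CCAAT, the NF-Y word, was present on either strand in 21 of the 32 (65.6%, beside 42.9% of the genes of the table), and TTTGAA, the CHR element, in 4 (12.5% beside 14.1%). Stretches of 30 bases around 6 of the matches before the RefSeq start are shown. These stretches allow the words to be compared between ring, loader and polymerase genes. They read 5′ to 3′ on the strand of the gene, with the match in capitals, and GCGCGAAA, GCGGGAAA and GCGCCAAA are words of the search read on the other strand.
Mcm5 (chr8:75109345-75109374, plus strand): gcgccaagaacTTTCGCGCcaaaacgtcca
Mcm6 (chr1:128359734-128359763, minus strand): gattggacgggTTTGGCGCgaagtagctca
Mcm7 (chr5:138172030-138172059, minus strand): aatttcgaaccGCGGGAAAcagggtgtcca
Orc1 (chr4:108579416-108579445, plus strand): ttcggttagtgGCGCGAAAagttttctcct
Cdc6 (chr11:98908002-98908031, plus strand): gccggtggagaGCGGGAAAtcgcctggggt
Pola1 (chrX:93632275-93632304, minus strand): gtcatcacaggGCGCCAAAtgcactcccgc
The Mcm5 stretch holds a further match at -149, which overlaps the one in capitals and ends in lower case. Positions are counted from the transcription start of the window that held the match. The matches in capitals begin at -153 for Mcm5, -47 for Mcm6, -165 for Mcm7, -27 for Orc1, -138 for Cdc6 and -138 for Pola1. In the GENCODE annotation the genes Mcm7, Orc1 and Cdc6 start further upstream, at bases 138172422, 108579423 and 98907801. Their matches shown here lie inside those genes. The 13 genes with a match had a median log2 fold change of -0.06 (-0.25 to 0.11, 12 of 13 below 0). The 19 with a window and no match had a median of -0.05 (-0.19 to 0.19, 11 of 19 below 0). The 7 without a window had a median of 0.05 (-0.08 to 0.13, 3 of 7 below 0). Of all tested genes 50.4% lay below 0, and 54.6% of those in the level range of the 39. None of the 39 passed the limma test, and a link between a match and the direction was not tested. Neither Rrm2 nor Rpa2 was among the genes with a match, which says only that these words are absent from their windows.

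Of the 15 polymerase and fork genes, edgeR called Rpa2 higher and none lower, and limma and DESeq2 called none. RPA coats single-stranded DNA as a trimer of RPA1, RPA2 and RPA3, and RPA2 (gene at chr4:132768332-132778752, plus strand) is the subunit phosphorylated on replication stress. Rpa2 stood at 153 and 154 CPM in ethanol and 171 and 181 CPM with 4-OHT. Both 4-OHT libraries were higher, by 14.5% on average, with a log2 fold change of 0.19 (SE 0.059). Its adjusted p was 0.0723 in limma, 0.0362 in edgeR and 0.285 in DESeq2. In limma restricted to genes averaging at least 1 on the log2(CPM + 1) scale, its adjusted p was 0.0379. In edgeR it was 0.199 to 0.223 without ethanol library A, without ethanol library B or without 4-OHT library B, and 0.0263 without 4-OHT library A. Rpa1, the large subunit, stood at 399 and 405 CPM in ethanol and 396 and 373 CPM with 4-OHT. For Rpa1 the 4-OHT libraries were the lower ones, with a log2 fold change of -0.07 (SE 0.055, limma adjusted p = 0.520).

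The third subunit gene, Rpa3, is outside the 39 and was named after its values were seen. It stood at 40.5 and 45.9 CPM in ethanol and 32.5 and 35.6 CPM with 4-OHT, a log2 fold change of -0.33 (SE 0.100, adjusted p = 0.0684 in limma and 0.0163 in edgeR). The level of Rpa2 relative to Rpa3 was 3.79 and 3.35 in ethanol and 5.24 and 5.08 with 4-OHT. Relative to Rpa1 it was 0.384 and 0.379 in ethanol and 0.431 and 0.485 with 4-OHT. These ratios restate that Rpa2 was higher, and Rpa3 and Rpa1 lower, in both 4-OHT libraries. In edgeR the adjusted p of Rpa3 was 0.270 without ethanol library B and 0.163 without 4-OHT library A, and DESeq2 gave 0.347.

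Lig1, the ligase that joins Okazaki fragments, stood at 371 and 379 CPM in ethanol and 376 and 361 CPM with 4-OHT. The groups overlapped, with a log2 fold change of -0.02 (SE 0.053, limma adjusted p = 0.844). Pcna, the clamp, was at 272 and 272 CPM in ethanol and 263 and 265 CPM with 4-OHT, a log2 fold change of -0.05 (limma adjusted p = 0.654). The 5 subunit genes of its loader RFC had log2 fold changes from -0.11 to 0.07, and Fen1, the flap nuclease, had -0.06. Exons on the opposite strand cover 84.2% of the Fen1 exons, so its reads carry the limit given for Orc2. Smaller overlaps, between 10.7% and 15.1% of the exons, were found for Rfc2, Rfc4, Rfc5, Orc1 and Mcm7.

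Among the polymerase genes, Pola2 and Pole had an unadjusted p under 0.05 in limma and were named after their values were seen. Pola2, the accessory subunit of the polymerase α-primase complex, stood at 186 and 181 CPM in ethanol and 167 and 159 CPM with 4-OHT. The groups did not overlap, with lower values in 4-OHT (log2 fold change -0.17, SE 0.059, adjusted p = 0.107 in limma and 0.0723 in edgeR). The catalytic subunit gene Pola1 had a log2 fold change of -0.05 with overlapping groups, and the primase gene Prim1 had -0.07. Pole, the catalytic subunit of the leading-strand polymerase ε, stood at 222 and 235 CPM in ethanol and 250 and 249 CPM with 4-OHT. Both 4-OHT libraries were higher (log2 fold change 0.13, SE 0.056, limma adjusted p = 0.202). Pold1, the catalytic subunit of the lagging-strand polymerase δ, had a log2 fold change of -0.06 with overlapping groups. The level of Pole relative to Pold1 was 0.843 and 0.968 in ethanol and 1.05 and 1.02 with 4-OHT, which in part restates the higher values for which Pole was named. These genes were not past the threshold in limma, edgeR or DESeq2.

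Of the 3 nucleotide supply genes edgeR called Rrm2 lower, and limma and DESeq2 called none. Ribonucleotide reductase turns ribonucleotides into deoxyribonucleotides with a large subunit, RRM1, and a small subunit, RRM2, whose level follows the cell cycle. Rrm2 (chr12:24708241-24714146, plus strand) stood at 445 and 454 CPM in ethanol and 403 and 385 CPM with 4-OHT. Both 4-OHT libraries were lower, by 12.3% on average, with a log2 fold change of -0.19 (SE 0.054, 95% interval -0.31 to -0.07). Its adjusted p was 0.0559 in limma, 0.0182 in edgeR and 0.0828 in DESeq2, and 0.0171 in limma restricted to the same higher genes as for Rpa2. In edgeR it was 0.153 without ethanol library A, 0.246 without ethanol library B, 0.0931 without 4-OHT library B and 0.00939 without 4-OHT library A.

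Rrm1 stood at 379 and 379 CPM in ethanol and 359 and 355 CPM with 4-OHT. Both 4-OHT libraries were lower here too (log2 fold change -0.09, SE 0.052, limma adjusted p = 0.350). Rrm2 relative to Rrm1 was 1.17 and 1.20 in ethanol and 1.12 and 1.08 with 4-OHT, without overlap. This ratio restates that Rrm2, which edgeR called lower, fell by more than Rrm1. Tyms, the thymidylate synthase gene, had a log2 fold change of -0.06 and overlapping groups. The 3 genes together summed to 933 and 938 CPM in ethanol and 861 and 846 CPM with 4-OHT.

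**Figure D4:**
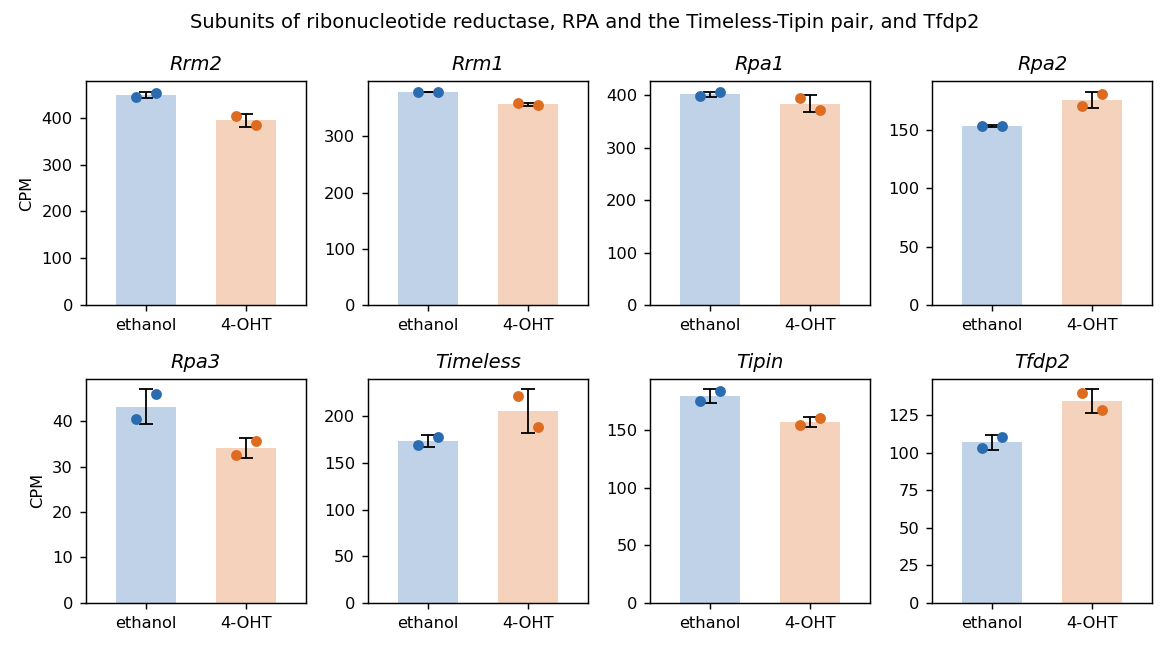
CPM of Rrm2 and Rrm1, the RPA subunit genes Rpa1, Rpa2 and Rpa3, the partners Timeless and Tipin, and Tfdp2, each on its own axis from 0; points are the 2 libraries of a group, bars their mean and whiskers 1 SD. Rpa2, Timeless and Tfdp2 are higher in both 4-OHT libraries and the others are lower in both.

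Most other genes of replication also missed the threshold. Of 76 measured genes in 8 lists, 1 rose, none fell and 75 did not pass the test in limma. Over the whole table limma called 9.46% of tested genes. At an unadjusted p under 0.05 in limma there were 11 of the 76, beside 23.9% of all tested genes. Of the 75 it tested, edgeR called 2 higher and 3 lower, beside 8.12% higher and 7.63% lower of all 12961 genes it tested. The gene that rose was Tfdp2, of the 17 genes of E2F, RB and the DREAM complex. It encodes a DP protein that pairs with E2F factors to bind DNA, and it stood at 103 and 111 CPM in ethanol and 140 and 129 CPM with 4-OHT. Both 4-OHT libraries were higher, with a log2 fold change of 0.33 (SE 0.069, adjusted p = 0.0152 in limma and 0.00043 in edgeR). Without ethanol library A its limma adjusted p was 0.0774, and without 4-OHT library A or B the limma fit called no gene of the whole table. In edgeR its adjusted p was 0.000107 to 0.0478 with any 1 of the 4 libraries left out. Its paralog Tfdp1, also named after its values were seen, had a log2 fold change of -0.14 (limma adjusted p = 0.175). The 8 E2F genes themselves did not pass in limma or edgeR.

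The other genes that edgeR called were named after their values were seen. Timeless and Tipin form a pair that travels with the fork and protects it. Timeless stood at 169 and 178 CPM in ethanol and 222 and 189 CPM with 4-OHT (log2 fold change 0.24, SE 0.078, adjusted p = 0.0902 in limma and 0.0066 in edgeR). Tipin stood at 175 and 184 CPM in ethanol and 154 and 160 CPM with 4-OHT (log2 fold change -0.19, SE 0.060, adjusted p = 0.0796 in limma and 0.0397 in edgeR). The level of Timeless relative to Tipin was 0.965 and 0.969 in ethanol and 1.44 and 1.18 with 4-OHT, which restates the opposite directions for which the pair was named. Without 4-OHT library A the log2 fold change of Timeless was 0.12 (edgeR adjusted p = 0.351), and without ethanol library A its edgeR adjusted p was 0.161. The edgeR adjusted p of Tipin was 0.114 without ethanol library A, 0.349 without ethanol library B and 0.185 without 4-OHT library A. Shmt1, a folate enzyme gene of thymidylate synthesis, stood at 145 and 145 CPM in ethanol and 130 and 123 CPM with 4-OHT (log2 fold change -0.19, SE 0.061, adjusted p = 0.0777 in limma and 0.0475 in edgeR). Its edgeR adjusted p was 0.213 without ethanol library A, 0.229 without ethanol library B and 0.212 without 4-OHT library B. DESeq2 called none of Timeless, Tipin and Shmt1. Rpa3, given above, was the third gene that edgeR called lower.

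None of the 12 origin firing genes, 8 licensing control genes, 6 genes of Okazaki fragments and topology and 7 genes of replication-coupled chromatin assembly was called in limma or edgeR. Of all tested genes, 9.46% were called in limma and 15.8% in edgeR. At such shares a list of 6 to 12 genes holds few calls, so these counts say little about the lists. All 7 chromatin assembly genes had a log2 fold change below 0 (median -0.08), beside 50.4% of all tested genes. The same held for 9 of the 10 other nucleotide supply genes (median -0.06) and 6 of the 8 polymerase accessory subunits (median -0.09). The origin firing list had 5 of 12 below 0 with a median of 0.01.

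Levels between subunits of a complex were compared per kilobase of transcript, as a description of the mRNA and not of the protein. In ethanol, Mcm5 was at 228 ± 2.1 CPM per kilobase (SD, n = 2), Mcm2 at 215 ± 2.1, Mcm3 at 189 ± 3.8, Mcm6 at 151 ± 0.73, Mcm7 at 144 ± 1.1 and Mcm4 at 107 ± 4.7. The 4-OHT libraries gave the same order of means, and the highest mean exceeded the lowest 2.12-fold in ethanol and 1.92-fold with 4-OHT. The ORC subunits were further apart, with Orc6 at 90.9 ± 2.7 and Orc4 at 13.6 ± 0.035 CPM per kilobase in ethanol, a ratio of 6.67 in ethanol and 6.50 with 4-OHT. Orc1, Orc3 and Orc5 lay between 42.0 and 45.8 CPM per kilobase in ethanol, in another order with 4-OHT, so their order is within the spread of libraries. Gins4 was at 54.6 ± 2.1 and Gins3 at 10.1 ± 0.92 CPM per kilobase in ethanol, a ratio of 5.42 in ethanol and 6.90 with 4-OHT. Among RFC genes Rfc4 was at 63.9 ± 2.6 and Rfc2 at 31.2 ± 1.4 CPM per kilobase.

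**Figure D5:**
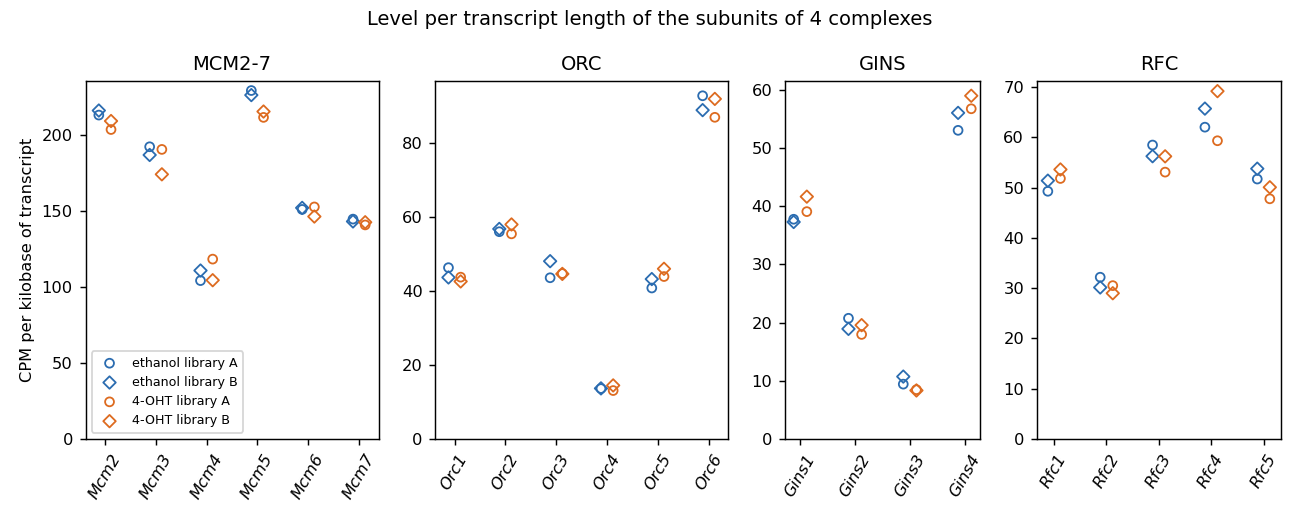
CPM per kilobase of transcript of the subunit genes of MCM2-7, ORC, GINS and RFC in each library, each complex on its own axis from 0; circles and diamonds are libraries A and B, blue for ethanol and orange for 4-OHT. The Mcm2 to Mcm7 levels span 2.12-fold and the Orc1 to Orc6 levels 6.67-fold in ethanol, and the libraries of a gene lie close together.

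The order depended on the length used. Per kilobase of coding sequence the ratio in ethanol was 2.34 for Mcm2 to Mcm7 and 3.49 for Orc1 to Orc6, with the same highest and lowest genes. For the GINS genes it was 3.56 with Gins2 highest, and Rfc2, the lowest RFC gene per transcript length, was the highest per coding length. Over the 39 genes, Mcm5, Mcm2, Rrm2 (205 ± 2.8), Mcm3 and Pcna (179 ± 0.021) had the 5 highest levels in ethanol per kilobase of transcript, and Gins3 and Orc4 the lowest. With 4-OHT, Rrm2 was at 180 ± 5.9 CPM per kilobase, Mcm3 at 182 ± 12 and Pcna at 174 ± 0.92. The 4-OHT libraries of Mcm3 (190.4 and 174.0) overlapped those of Rrm2 (183.9 and 175.5) and of Pcna (173.0 and 174.3). Those of Rrm2 and Pcna did not overlap.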

How the data were processed

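PolyA RNA-seq of 4 libraries was used, 2 per group. FastQC, Trimmomatic, HISAT2 and edgeR were run on the mm10 build, per the submitters' processing notes. No source used here names the read counter or says whether strand was used. The deposited table gave each group's mean CPM, a log2 fold change and an adjusted p-value per gene, per the file headers. Neither the log2 fold change nor the p-value of the authors' deposited table was used, since both are out of register with the genes. Sorted by Entrez number as text, the p-value never fell (14381 steps), and the Spearman rho of the log2 fold change with the log2 ratio of the mean CPM of its row was 0.0169.

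A mean CPM of 2 libraries is a sum of 2 whole read numbers, each times the step of its library. With 2 steps found per group, 100% of the deposited CPM values came out as whole reads to within 1.5 times their rounding error. The solution was unique for 99.7% (ethanol) and 99.95% (4-OHT) of genes. Of 3000 values moved at random, 0% came out whole. They were drawn from genes below a set multiple of the median level, so this share does not cover the highest genes. Among genes with more solutions, 40 of 46 (ethanol) and 7 of 7 (4-OHT) had a single one that kept both libraries of the group within a factor of 2. The 6 others, at 2859 CPM or more, were left out, leaving 14376. Log2(CPM + 1) correlated at 0.995 within groups and 0.987 to 0.988 between them (Pearson, across genes, which are not independent).

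Log2(CPM + 1) values were tested without a filter by limma-trend (3.58.1, in R 4.3.3), two-sided, and p-values were adjusted by Benjamini-Hochberg across the table. Fold changes on this scale understate the change of low genes. Alternatives on the recovered reads were edgeR 4.0.16 (quasi-likelihood, filterByExpr) and DESeq2 1.42.0, beside other scalings, pseudocounts, filters, thresholds and left-out libraries. The scripts were tested on simulated data. All 39 genes passed filterByExpr, and the fewest reads of any in a library were 132. Transcript and coding lengths and gene coordinates are from GENCODE M21 (mm10, 1-based), and promoter windows from RefSeq (GRCm38.p6). Symbols came from the table for 13626 genes and from RefSeq for 746. The genes and lists were chosen with earlier results of these data known. Named with values per library by rule are genes of the 39 called by limma or edgeR, the 2 of highest mean CPM in each role, up to 3 called genes of each other list, Arid1a, Pou5f1 and Nanog. Values per library of Sox2, Nes, Sox1, Gins3, Cdc45, Pcna, Pola2 and Pole were added outside this rule.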

Additional observations from a re-analysis of the deposited data

How the results depend on the processing

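No paired analysis was possible because the columns carry no replicate numbers. Of 304 values of 19 named genes under the alternatives, 260 kept their direction and side of the threshold, 7 lost and 27 gained a call, and 10 changed sign. Over the whole table limma called 754 genes higher and 606 lower. DESeq2 called 382 and 318, a threshold of 0.01 gave 356 and 282, a threshold of 0.1 gave 959 lower, edgeR 989 lower and a minimum mean log2(CPM + 1) of 1 gave 982 lower. Leaving out 1 library gave 0 to 943 higher and 0 to 824 lower. The counts of 0 came from limma without 4-OHT library A or B (2505 and 2514 genes at an unadjusted p under 0.05, lowest adjusted p 0.129 and 0.121), where edgeR called 812 higher and 776 lower without A and 943 and 824 without B. The lone sample is then assumed to vary like the other group. Of the 39 genes, 1 was called higher (Rpa2) and 1 lower (Rrm2) with a minimum of 1 or 3, in edgeR and at a threshold of 0.1, and leaving out 1 library gave 0 to 1 in each direction. Of the other replication genes, 2 were called higher and 3 lower with either minimum and in edgeR, 2 and 4 at a threshold of 0.1, and 0 higher at 0.01. Leaving out 1 library gave 0 to 2 higher and 0 to 4 lower. Log2 fold changes near 0 changed sign when 1 library was left out, over ranges of -0.0247 to 0.0400 for Orc2, -0.0532 to 0.0050 for Lig1 and -0.0811 to 0.0720 for Pou5f1. By coding length the ratio of the highest to the lowest level was 2.344 for Mcm2 to Mcm7, 3.488 for ORC and 3.562 for GINS. The cause of these differences was not tested. The SE of the log2 fold change was 0.051 to 0.12 for the 39 genes, which limits what these 4 libraries can detect.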
